A study of Homo sapiens with 72 samples.

Results

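The 39 protein-coding HOX genes of the HOXA, HOXB, HOXC and HOXD clusters were followed in U2OS, an osteosarcoma cell line, by population RNA-seq. They were taken as the protein-coding genes whose GENCODE symbol is HOX, a cluster letter and a number, matched by Ensembl identifier. All 39 were among the 60279 Ensembl genes listed and among the 19550 of these annotated as protein-coding. Of the 72 wells, 18 received the vehicle DMSO and 54 received 1 of 6 compounds at 100 nM, 1000 nM or 10000 nM, in triplicate. All wells held the same unmodified cell line in 24-well plates, and treatment lasted 12 h. The compounds were triptolide, which blocks initiation of transcription through the general factor TFIIH, homoharringtonine, which blocks translation elongation at the ribosome, pyrazolanthrone, a JNK kinase inhibitor, nilotinib, a tyrosine kinase inhibitor, miglitol, an alpha-glucosidase inhibitor, and MK-2206, an AKT kinase inhibitor. RNA was poly A selected. The labels do not say whether wells of a group came from separate cultures, so p-values measure the spread between wells, which may be technical.

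HOX genes encode homeodomain transcription factors that give cells their position along the body axis. Each cluster is a row of genes numbered by paralog group, with low numbers expressed anteriorly and high numbers posteriorly, and adult mesenchymal cells and their tumours often keep part of the HOX code of their origin. HOX proteins bind DNA with TALE cofactors (PBX, MEIS and PKNOX), and Polycomb complexes and MLL methyltransferases keep the clusters silent or active. The HOXA genes named here lie on chromosome 7 (GRCh38, GENCODE 44) from the start of HOXA2 at 27100354 to the end of HOXA13 at 27200091. The HOXB genes lie on chromosome 17 from HOXB1 at 48528526 to HOXB13 at 48728750, the HOXC genes on chromosome 12 from HOXC13 at 53938831 to HOXC4 at 54056030, and the HOXD genes on chromosome 2 from HOXD13 at 176092721 to HOXD1 at 176190907. HOX genes of a cluster share exon bases on the same strand in places, and several overlap antisense RNAs. HOXB6 shares 16.6% of its exon bases with HOXB3, and HOXD10 and HOXD11 share 18.2% and 21.4% of theirs with each other. HOXC5 shares 67.3% and HOXA4 31.3% of their exon bases with listed genes that have no symbol. HOXA6 overlaps antisense HOXA-AS3, and HOXD1 overlaps HAGLR. The library kit marks the strand, but whether counting used it is not given in the sources used here, so reads of such pairs may not have been told apart.

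RefSeq promoter windows (GRCh38.p14, the 250 bases before the transcription start) were at hand for 20 of the 39 genes. The windows of HOXA6, HOXA13 and HOXD1 are shown for their changes below. HOXA13 was among the 6 called genes with the largest drop at every dose of triptolide and homoharringtonine. HOXA6 was among them at every homoharringtonine dose and with triptolide at 100 nM only. HOXD1 was the one HOX gene called higher with homoharringtonine. Capitals mark CCAAT and GGGCGG on either strand (ATTGG and CCGCCC when read on the other strand), with overlapping matches counted. The windows are chr7:27147775-27148024 on the minus strand for HOXA6, chr7:27200092-27200341 on the minus strand for HOXA13, and chr2:176188418-176188667 on the plus strand for HOXD1, the last holding part of an exon of antisense HAGLR.
HOXA6: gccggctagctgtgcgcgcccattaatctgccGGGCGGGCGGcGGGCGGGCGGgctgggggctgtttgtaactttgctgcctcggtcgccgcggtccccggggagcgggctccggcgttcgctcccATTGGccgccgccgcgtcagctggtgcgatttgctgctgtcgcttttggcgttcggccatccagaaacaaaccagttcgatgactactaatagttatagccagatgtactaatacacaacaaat
HOXA13: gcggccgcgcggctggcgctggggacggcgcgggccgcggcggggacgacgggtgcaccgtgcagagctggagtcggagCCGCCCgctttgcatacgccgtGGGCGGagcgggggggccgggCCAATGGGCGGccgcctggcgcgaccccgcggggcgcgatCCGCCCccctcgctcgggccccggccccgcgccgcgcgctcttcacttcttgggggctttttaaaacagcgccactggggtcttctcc
HOXD1: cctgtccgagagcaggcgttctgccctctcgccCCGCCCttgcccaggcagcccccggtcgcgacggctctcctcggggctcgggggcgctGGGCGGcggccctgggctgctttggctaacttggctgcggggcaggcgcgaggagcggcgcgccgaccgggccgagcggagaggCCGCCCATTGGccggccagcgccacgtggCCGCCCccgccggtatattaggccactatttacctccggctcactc

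Each of these 3 windows held 4 GGGCGG matches and 1 CCAAT match, with a GC content of 62%, 78% and 74.8%, respectively. Over the 20 windows, CCAAT was present in 17 (85%), against 32.0% of 35116 RefSeq promoter windows of the same length. HOXC4 and HOXC5 shared 1 window. GGGCGG was present in 10 of 20 (50%), against 42.6% of all windows. TATAAA was present in 4 of 20 (20%), those of HOXA3, HOXA9, HOXA10 and HOXD13, against 10.7% of all windows. The median GC content was 59% over the 20 windows (range 47.2% to 78%) and 58% over all windows. A match of letters is a description and not a binding site.

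Library depth ranged from 10434137 to 68270780 expected counts in 69 of the 72 wells. The other 3 libraries were shallow, namely DMSO replicate 10 (458921 counts), 100 nM triptolide replicate 2 (70414 counts) and 1000 nM triptolide replicate 1 (9520374 counts), and each count of called HOX genes below is given with and without them where it differs. At the depth of the shallowest library most HOX mRNAs were at 0 counts, so its values are given in order with the others but carry almost no precision. The 13 mitochondrial mRNAs took 0.243% of counts on average in DMSO wells, 0.565%, 0.940% and 1.09% with rising triptolide dose, and 0.271% with 10000 nM homoharringtonine. Levels below are relative to all mRNA in a well, so a loss of total mRNA, fewer cells and less RNA per cell cannot be told apart. Of 9 bone and mesenchyme markers 7 were at 1 TPM or more in DMSO wells, led by SPARC, while TWIST1 was listed at 0 TPM. Of the other lists 0 of 4 blood, 0 of 3 endothelial, 2 of 4 epithelial and 2 of 3 neuronal markers reached that level, none above 7.82 TPM (CLDN4).

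With DMSO, 29 of the 39 HOX genes reached a mean of 1 TPM (a level per transcript length, scaled to a fixed sum per library), and 10 did not. HOXA9 was first at 30.9 ± 5.18 TPM (SD, n = 18), a posterior gene of the kind often studied in leukaemia. HOXB7 followed at 29.5 ± 25.8 TPM, a spread due to a value of 131.6 TPM in the shallow replicate 10, and its mean was 23.5 ± 4.13 TPM over the other 17 wells. HOXB9 stood at 28.2 ± 3.24 TPM and HOXA10 at 25.1 ± 3.45 TPM. The next gene was HOXC10, at 16.2 ± 5.17 TPM. The gap between HOXA10 and HOXC10 was larger than the SD of either gene, and among neighbours in the whole order this held elsewhere only between HOXD3 (0.979 TPM) and HOXD1 (0.244 TPM). This order includes the shallow replicate 10. Over the other 17 wells HOXB9 (28.8 ± 2.12 TPM) and HOXA10 (24.4 ± 2.27 TPM) also lay further apart than either SD. HOXB7 was then below both. HOXC6, HOXC13, HOXA11, HOXB3, HOXB13, HOXA7 and HOXC9 lay between 14.7 and 11.3 TPM and could not be ordered beyond their spread. HOXD8, HOXC8, HOXA4, HOXB2, HOXA6 and HOXD9 lay between 8.79 and 5.03 TPM. HOXC11, HOXC4, HOXB6, HOXA5, HOXA13, HOXA3, HOXD10, HOXB8, HOXD11 and HOXB5 lay between 4.44 and 1.09 TPM. Without the shallow DMSO library HOXD3 also reached 1 TPM, giving 30 genes.

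The clusters were used unequally. In HOXA 10 of 11 genes reached 1 TPM, in HOXB 8 of 10, in HOXC 7 of 9 and in HOXD 4 of 9. Of the summed HOX TPM, 302.4 ± 49.1 over 18 wells, HOXA gave 37.9 ± 2.58%, HOXB 32.1 ± 2.48%, HOXC 23.9 ± 1.53% and HOXD 6.18 ± 1.11%. By position, the posterior paralog groups 9 to 13 gave 56.8 ± 4.18% of the sum with 13 of 16 genes at 1 TPM, the central groups 4 to 8 gave 32.1 ± 5.67% with 12 of 15, and the anterior groups 1 to 3 gave 11.1 ± 1.78% with 4 of 8. The low genes did not sit at one end of a cluster. Beside HOXD3 and HOXD1, these were HOXA2 (0.162 TPM), HOXB4 (0.0983 TPM), HOXD4 (0.0606 TPM), HOXD12 (0.0372 TPM), HOXC5 (0.0350 TPM), HOXD13 (0.0161 TPM) and HOXC12 (0.00444 TPM), with HOXB1 listed at 0 TPM in all DMSO wells. HOXB4 and HOXC5 were thus low between neighbours above 1 TPM. HOXC5 shares 67.3% of its exon bases on the same strand with other listed genes, so its reads may have been assigned to them. HOXB1, HOXC5, HOXC12, HOXD4, HOXD12 and HOXD13, 6 genes in all, had at most 9 counts in any well and entered no test.

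**Figure D1:**
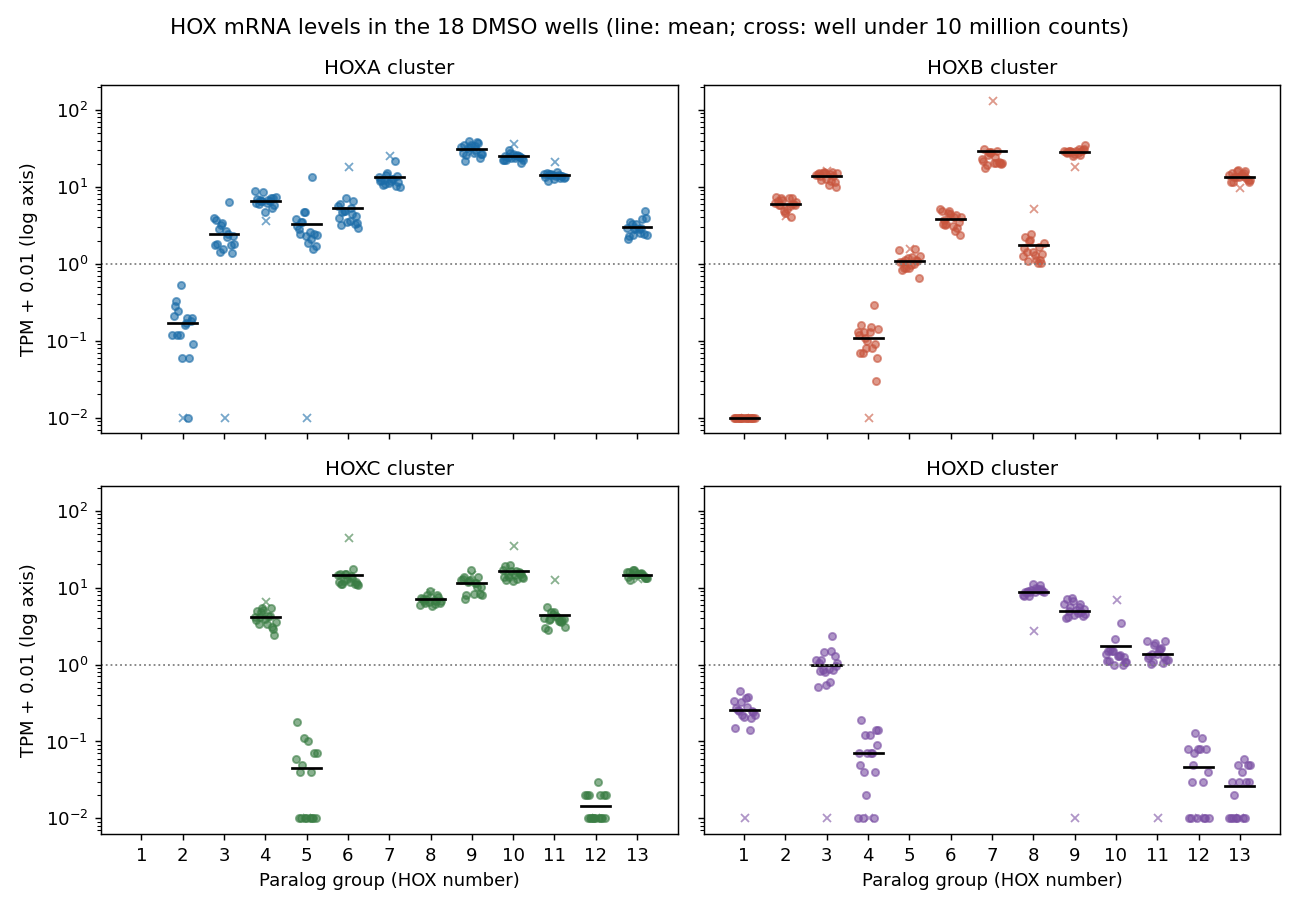
Levels of HOX mRNAs in the 18 DMSO wells as TPM + 0.01 on a log axis, by paralog group within each cluster, with points for wells, a line for the mean, a cross for the shallow library and a dotted line at 1 TPM; an empty position is a group with no gene or one not reported here. HOXA and HOXB hold the genes near 30 TPM, and HOXD12, HOXD13, HOXC12, HOXC5, HOXD4 and HOXB4 have means below 0.1 TPM.

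The other 33 HOX genes entered every comparison with DMSO. Expected counts were compared with edgeR's quasi-likelihood test over all genes passing the filter, and a gene was called at a Benjamini-Hochberg adjusted p under 0.05 with a log2 fold change beyond 1 in size. With triptolide, 19 of 33 HOX genes were lower and 1 was higher at 100 nM, 21 were lower and 0 higher at 1000 nM, and 21 were lower and 0 higher at 10000 nM. Over all genes tested, 21% were called lower and 11.4% higher at 100 nM, 30.4% and 13.9% at 1000 nM, and 30.2% and 16.4% at 10000 nM. The median log2 fold change of the HOX genes was -1.27, -1.64 and -1.41 with rising dose, against -0.16, -0.22 and -0.16 over all genes. These 6 counts did not change without the 3 shallow libraries. No HOX gene was called higher at the upper doses by edgeR or DESeq2, and at an unadjusted p under 0.05 there were 1 (HOXB3) at 1000 nM and 0 at 10000 nM. By the adjusted p with no fold threshold HOXB3 was the 1 gene higher at 1000 nM, against 28.8% of all genes.

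The counts depend on the scale. Relative to the 13 mitochondrial mRNAs, the median of all genes shifted by a log2 change of -1.66, -2.47 and -2.77 at the 3 triptolide doses, and 32, 33 and 33 of the 33 HOX genes were then called lower, against 74.7%, 93.9% and 97.4% of all genes. With library sizes alone the shifts were -0.33, -0.46 and -0.54. For homoharringtonine the median shift stayed within -0.28 under either scaling. The triptolide changes below are therefore changes relative to the other mRNAs of the same well.

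With homoharringtonine, 23 of 33 HOX genes were lower at 100 nM, 21 at 1000 nM and 23 at 10000 nM, and 1, HOXD1, was higher at each dose. Over all genes tested, 19.4% were called lower and 15.6% higher at 100 nM, 21% and 21.5% at 1000 nM, and 23.4% and 23.7% at 10000 nM. The HOX median was -1.86, -1.43 and -1.54, against -0.03, -0.01 and -0.04 over all genes. These counts did not change without the shallow DMSO library. Both sets of comparisons use the same DMSO wells, so the values for each gene are set side by side and not as independent results.

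**Figure D2:**
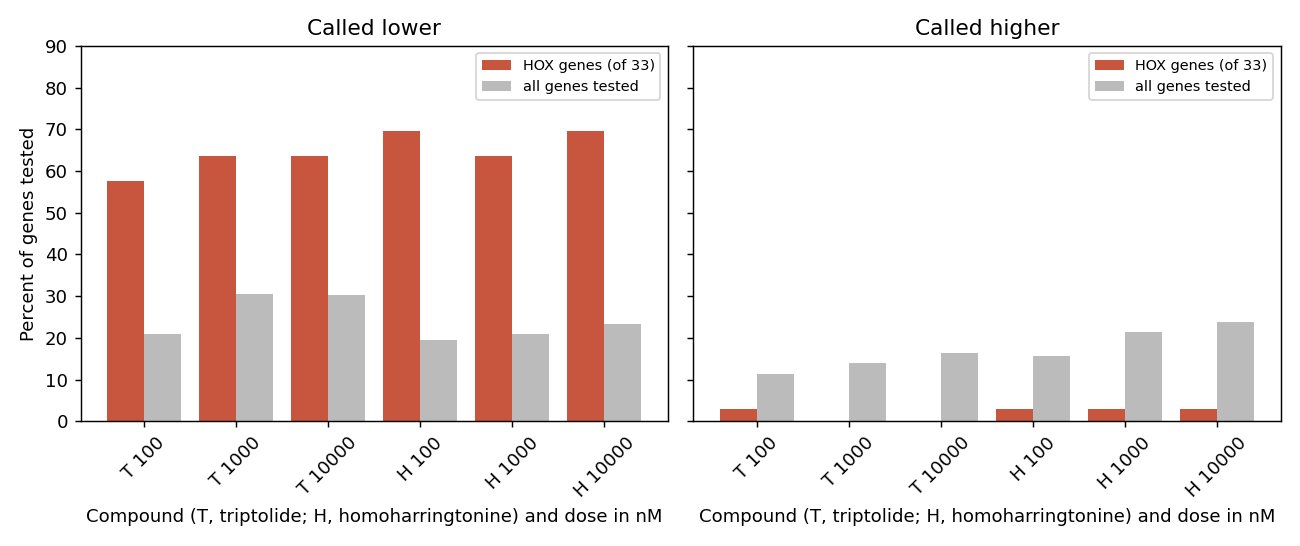
Share of the 33 tested HOX genes and of all tested genes called lower (left) or higher (right) than DMSO, in percent, for triptolide (T) and homoharringtonine (H) at each dose in nM. The HOX bars stand for 19, 21 and 21 lower genes with triptolide and 23, 21 and 23 with homoharringtonine, beside 19.4% to 30.4% of all genes.

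By cluster, HOXA gave the most calls with triptolide. Of its 11 tested genes 9 were lower at each triptolide dose, with a median log2 fold change of -1.69 at 100 nM, -2.84 at 1000 nM and -2.84 at 10000 nM. With homoharringtonine 6, 7 and 7 were lower, with medians of -1.92, -1.21 and -1.39. In HOXB the order was the other way round, with 2, 5 and 4 of 9 lower with triptolide (medians -0.55, -1.42 and -0.73) and 8, 7 and 8 of 9 with homoharringtonine (-2.07, -1.93 and -1.93). HOXC had 4 of 7 lower at each triptolide dose (medians -1.40, -1.30 and -1.26) and 5, 3 and 4 with homoharringtonine (-1.37, -0.76 and -1.28). HOXD had 4, 3 and 4 of 6 lower with triptolide (medians -1.28, -1.12 and -1.25) and 4 of 6 at each homoharringtonine dose (-1.92, -1.36 and -1.63). By position, the central groups 4 to 8 had 11 of 13 genes lower at each homoharringtonine dose, the posterior groups 9 of 13 at each dose and the anterior groups 3, 1 and 3 of 7. With triptolide the same groups had 8, 9 and 8 of 13, 8, 9 and 9 of 13, and 3, 3 and 4 of 7. These counts by cluster and position depend on the scale. With library sizes alone HOXB2 (-1.14 and -1.26) and HOXB7 (-1.02 and -1.16) also passed both thresholds at 1000 and 10000 nM triptolide. Scaled to the mitochondrial mRNAs, all 33 tested HOX genes were lower at these doses, whatever their cluster. No test of a difference between clusters was made. Across the 33 genes the fold change at 10000 nM had a Spearman rho with the DMSO TPM level of 0.13 for triptolide and 0.22 for homoharringtonine, and with the paralog group number of -0.07 and -0.21; these points share libraries and genes are not replicates.

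**Figure D3:**
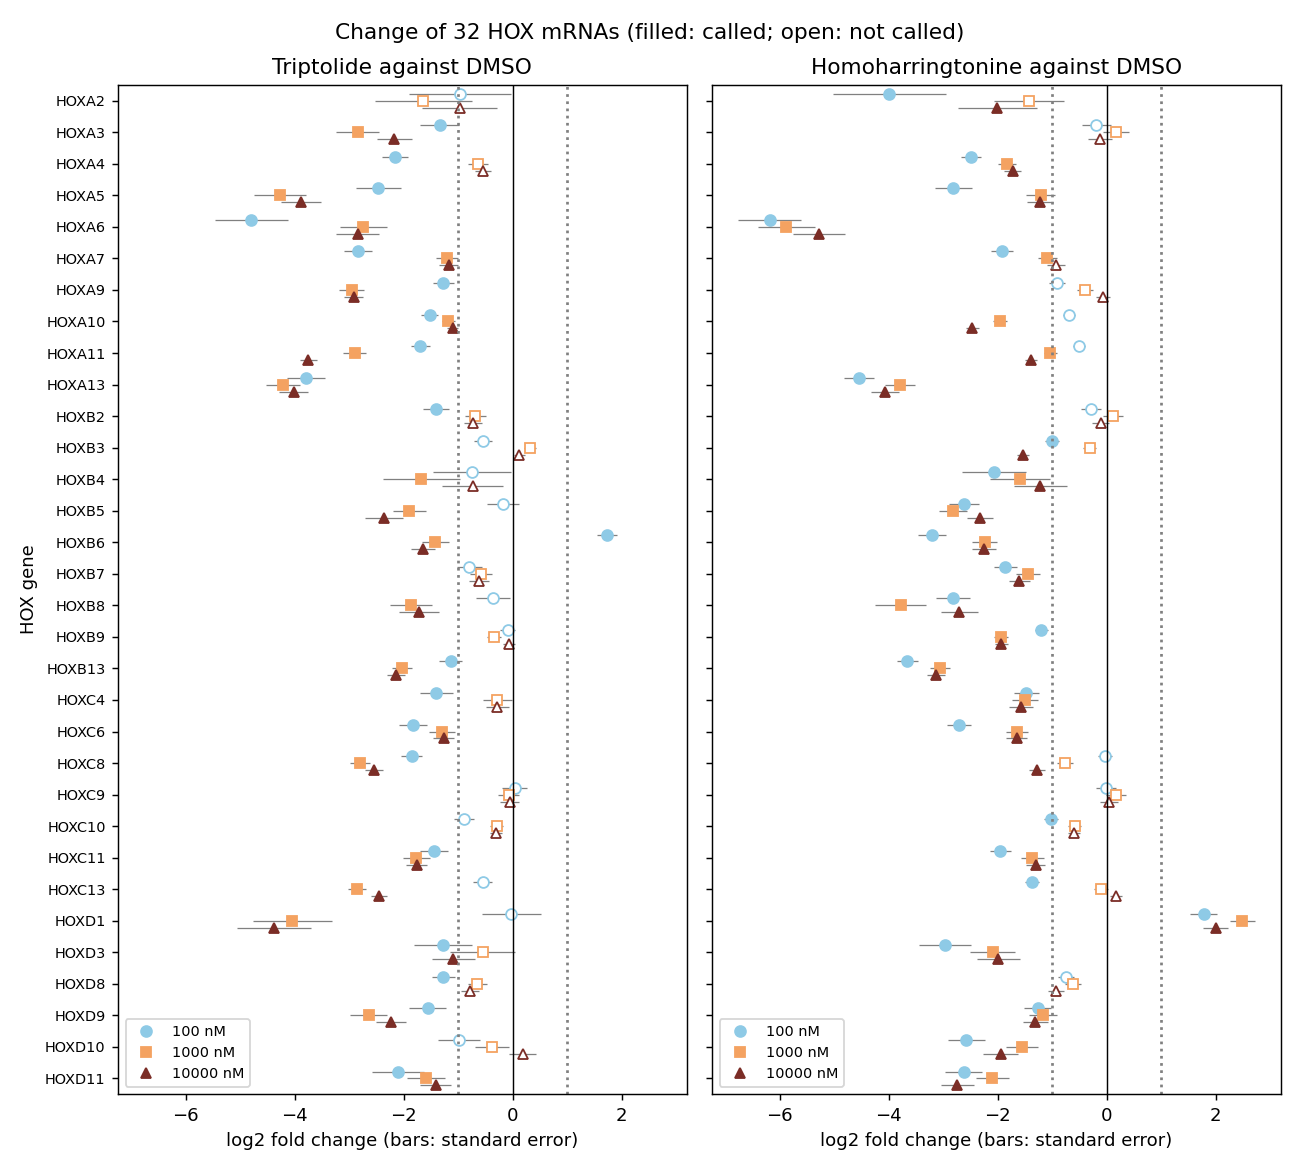
Log2 fold change against DMSO of 32 HOX mRNAs with triptolide (left) and homoharringtonine (right) at 100, 1000 and 10000 nM, with standard errors as bars, filled symbols for called changes and dotted lines at -1 and 1. HOXA6 lies between -2.74 and -4.80 with triptolide and between -5.27 and -6.18 with homoharringtonine, and HOXD1 lies on opposite sides of 0 with the 2 compounds at the upper doses.

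In the HOXA cluster, HOXA6 and HOXA13 were low with either compound. HOXA6, a central gene, stood at 1.31, 2.25 and 9.18 normalized CPM (counts scaled to library size; lowest, median and highest of 18 DMSO wells) and between 0 and 0.425 CPM in all 9 triptolide wells. Its wells were 0.106, 0 and 0 CPM at 100 nM, 0.257, 0.230 and 0.407 CPM at 1000 nM, and 0.425, 0.217 and 0.309 CPM at 10000 nM. With homoharringtonine they were 0.0510, 0 and 0.0276 CPM at 100 nM, 0.0488, 0.0431 and 0.0185 CPM at 1000 nM, and 0.0407, 0.104 and 0.0357 CPM at 10000 nM. No treated well overlapped DMSO. The log2 fold change at 10000 nM was -2.84 with triptolide and -5.27 (SE 0.48, adjusted p = 4.99e-10) with homoharringtonine. At 100 nM each group held 3 counts of HOXA6 in all, so the fold is given from counts, as 32.9-fold lower with triptolide (95% counting interval 11.2 to 159.3) and 95.3-fold lower with homoharringtonine (32.6 to 462.1). HOXA6 overlaps HOXA-AS3, which was itself lower, by -2.66 with 10000 nM triptolide and -3.85 with 10000 nM homoharringtonine on the log2 scale; its part in the HOXA6 values was not tested.

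HOXA13, the most posterior HOXA gene and a factor of limb and urogenital development, stood at 4.89, 7.61 and 10.5 CPM with DMSO. It was 0.426, 0 and 0.760 CPM with 100 nM triptolide, 0.643, 0.230 and 0.383 CPM with 1000 nM, and 0.309, 0.578 and 0.502 CPM with 10000 nM. The homoharringtonine wells held 0.382, 0.301 and 0.248 CPM, 0.318, 0.496 and 0.776 CPM, and 0.326, 0.389 and 0.625 CPM. All 18 treated wells lay below every DMSO well. The log2 fold changes were -3.80 (SE 0.35), -4.22 (SE 0.31) and -4.02 (SE 0.27, adjusted p = 1.52e-12) with triptolide and -4.54 (SE 0.27), -3.79 (SE 0.27) and -4.07 (SE 0.26, adjusted p = 8.34e-13) with homoharringtonine.

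HOXA5, a central gene with roles in lung and thorax patterning, was called lower at all doses of either compound, with a deeper change for triptolide at the upper doses. It stood at 0, 2.00 and 3.15 CPM with DMSO, the 0 being the shallow library. With triptolide it was 0.284, 0 and 0.543 CPM, then 0, 0.230 and 0.0957 CPM, and 0.0773, 0.180 and 0.154 CPM, and the log2 fold changes were -2.46, -4.27 (SE 0.47, adjusted p = 1.80e-08) and -3.88 (SE 0.37, adjusted p = 9.17e-10). With homoharringtonine it was 0.357, 0.361 and 0.138 CPM, then 1.17, 0.690 and 0.813 CPM, and 1.12, 0.700 and 0.857 CPM, with log2 fold changes of -2.81, -1.21 and -1.22. The deep DMSO wells did not overlap the triptolide wells.

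HOXA9 and HOXA11, posterior genes, were called lower at each triptolide dose, and with homoharringtonine HOXA9 was called at none and HOXA11 at the 2 upper doses. HOXA9 stood at 9.18, 16.9 and 21.7 CPM with DMSO, at 1.67, 3.33 and 1.70 CPM with 1000 nM triptolide and at 2.55, 2.09 and 2.05 CPM with 10000 nM. The log2 fold changes were -1.27, -2.96 (SE 0.22, adjusted p = 1.42e-11) and -2.92 (SE 0.17, adjusted p = 1.48e-13). With homoharringtonine HOXA9 rose towards the DMSO range with dose, from 8.20, 9.25 and 8.72 CPM at 100 nM to 16.2, 14.5 and 17.8 CPM at 10000 nM, where the log2 fold change was -0.07. HOXA11 stood at 16.4, 20.7 and 25.7 CPM with DMSO, at 3.99, 3.22 and 1.63 CPM with 1000 nM triptolide and at 1.62, 1.77 and 1.16 CPM with 10000 nM. Its log2 fold changes were -1.69, -2.90 (SE 0.21, adjusted p = 6.58e-12) and -3.75 (SE 0.16, adjusted p = 2.03e-16) with triptolide, and -0.51, -1.04 and -1.39 with homoharringtonine. The triptolide wells of both genes lay below all DMSO wells.

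HOXA10, a posterior gene of uterine and haematopoietic development, was lower with homoharringtonine than with triptolide at 10000 nM, a direct difference of 1.46 that turns to -1.13 with mitochondrial scaling. It stood at 21.3, 25.7 and 29.9 CPM with DMSO and at 12.1, 12.3 and 11.5 CPM with 10000 nM triptolide (log2 fold change -1.10). With homoharringtonine it was 16.1, 14.3 and 15.9 CPM at 100 nM, 7.77, 5.80 and 6.08 CPM at 1000 nM and 4.60, 5.36 and 4.09 CPM at 10000 nM, all below DMSO. The log2 fold changes were -0.69, -1.96 and -2.47 (SE 0.12, adjusted p = 4.63e-15).

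HOXA4 and HOXA7 were lowest with triptolide at its lowest dose. HOXA4 stood at 1.84, 4.33 and 5.91 CPM with DMSO and at 1.10, 0 and 0.760 CPM with 100 nM triptolide. It changed there by -2.16 on the log2 scale (SE 0.24, adjusted p = 4.45e-08). At the upper doses it was not called (-0.64 and -0.54), but with library sizes alone it passed both thresholds there (-1.08 and -1.07). With homoharringtonine it was lower at each dose, by -2.49, -1.83 and -1.73 on the log2 scale. HOXA7 stood at 11.9, 15.3 and 29.4 CPM with DMSO and at 2.17, 0 and 2.17 CPM with 100 nM triptolide, -2.85 (SE 0.26, adjusted p = 1.42e-09), and at -1.21 and -1.18 at the upper doses. HOXA3, an anterior gene, was lower at each triptolide dose (-1.34, -2.84 and -2.17) and was not called with homoharringtonine (-0.19, 0.18 and -0.12). HOXA2, of hindbrain and branchial arch patterning, ranged from 0 to 0.582 CPM with DMSO and held 1 count in all with 100 nM homoharringtonine, 20.2-fold lower with a 95% counting interval of 3.62 to 796.8, and its wells of 0, 0.0301 and 0 CPM overlapped DMSO.

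In the HOXB cluster, HOXB6 was the one HOX gene called higher with triptolide, and at 1 dose. It stood at 2.15, 3.23 and 4.14 CPM with DMSO, at 10.2, 0 and 10.8 CPM with 100 nM triptolide, at 1.29, 1.61 and 0.838 CPM with 1000 nM and at 1, 0.650 and 1.35 CPM with 10000 nM. The 2 deeper wells at 100 nM lay above all DMSO wells and the 0 came from the library of 70414 counts. The log2 fold change was 1.72 (SE 0.18, adjusted p = 2.23e-08) at 100 nM, 1.78 without the shallow libraries but -0.0081 relative to the mitochondrial mRNAs, and -1.42 and -1.65 at the upper doses. The homoharringtonine wells held 0.459, 0.241 and 0.276 CPM, then 0.904, 0.561 and 0.518 CPM, and 0.448, 0.726 and 0.804 CPM. These lay below all DMSO wells, at log2 fold changes of -3.20 (SE 0.26, adjusted p = 7.00e-11), -2.24 (SE 0.23, adjusted p = 6.75e-09) and -2.26. HOXB3, with which HOXB6 shares exon bases, was -0.55 with 100 nM triptolide and not called. HOXB6 also overlaps antisense HOXB-AS3, whose part in the HOXB6 values was not tested.

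HOXB9, among the most abundant HOX mRNAs with DMSO, was called lower at each homoharringtonine dose and at no triptolide dose. It stood at 27.6, 48.9 and 55.4 CPM with DMSO and at 43.4, 45.8 and 46.8 CPM with 10000 nM triptolide, inside the DMSO range, a change of -0.07 on the log2 scale that becomes -0.61 with library sizes and -2.85 with mitochondrial scaling. Homoharringtonine wells held 17.6, 20.4 and 22.1 CPM, then 12.7, 12.5 and 11.6 CPM, and 12.1, 11.8 and 13.8 CPM, all below DMSO, with log2 fold changes of -1.20, -1.93 and -1.93 (adjusted p = 5.34e-13). HOXB13, the most posterior HOXB gene and a prostate lineage factor, was lower with both. It stood at 20.2, 31.2 and 39.1 CPM with DMSO, between 6.69 and 9.20 CPM in the 6 wells at the upper triptolide doses (log2 fold changes -2.03 and -2.14, and -1.14 at 100 nM), and at 1.86, 2.65 and 2.71 CPM with 100 nM homoharringtonine. With 1000 nM homoharringtonine it was 4.22, 3.82 and 3.12 CPM and with 10000 nM 3.66, 3.52 and 3.66 CPM, none overlapping DMSO. The homoharringtonine changes were -3.66 (SE 0.19, adjusted p = 3.04e-14), -3.06 (SE 0.18, adjusted p = 2.96e-13) and -3.13 (SE 0.16, adjusted p = 1.29e-14).

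HOXB5 and HOXB8, central genes near 1 TPM, were called lower at each homoharringtonine dose. HOXB8 stood at 0.665, 0.885 and 1.84 CPM with DMSO and at 0.171, 0.0431 and 0 CPM with 1000 nM homoharringtonine, changing by -3.78 on the log2 scale (SE 0.47, adjusted p = 1.59e-07), and it was -2.82 and -2.71 (SE 0.34, adjusted p = 1.08e-07) at the other doses. HOXB5 stood at 0.842, 1.31 and 2.04 CPM with DMSO and at 0.171, 0.172 and 0.222 CPM with 1000 nM homoharringtonine, -2.82 (SE 0.26, adjusted p = 6.84e-10). With triptolide neither was called at 100 nM (-0.19 for HOXB5 and -0.36 for HOXB8), and both were lower at the upper doses, HOXB5 by -1.89 and -2.36 and HOXB8 by -1.87 and -1.72. HOXB7 was lower at each homoharringtonine dose (-1.86, -1.45 and -1.60) and not called with triptolide (-0.80, -0.58 and -0.62), but with library sizes alone it passed both thresholds at all 3 triptolide doses (-1.14, -1.02 and -1.16). HOXB3 was lower with 100 nM and 10000 nM homoharringtonine (-1.01 and -1.54), and with triptolide it was not called at any dose, at 0.32 and 0.12 at the upper doses, signs that turn to -0.12 and -0.41 with library sizes alone.

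In the HOXC cluster, HOXC9 was called in none of the 6 comparisons. It stood at 3.67, 8.26 and 10.9 CPM with DMSO and between 6.27 and 11.3 CPM in all triptolide and homoharringtonine wells but the shallowest, with log2 fold changes of 0.03, -0.07 and -0.06 with triptolide and -0.01, 0.16 and 0.04 with homoharringtonine. Scaled to the mitochondrial mRNAs it was -1.71, -2.55 and -2.89 with triptolide. HOXC13, the most posterior gene of its cluster and a factor of hair and nail formation, stood at 17.7, 23.3 and 28.4 CPM with DMSO. With triptolide it was 14.3, 0 and 17.4 CPM at 100 nM, 2.83, 3.10 and 3.33 CPM at 1000 nM and 3.52, 4.12 and 4.98 CPM at 10000 nM, all below DMSO, with calls at the upper doses (-2.86 and -2.45). With homoharringtonine it was 7.54, 9.13 and 9.22 CPM at 100 nM, below DMSO (-1.37), and 27.5, 27.4 and 23.4 CPM at 10000 nM, inside the DMSO range (0.17). HOXC8 was lower at each triptolide dose (-1.86, -2.80 and -2.55) and with homoharringtonine only at 10000 nM (-0.03, -0.76 and -1.28).

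In the HOXD cluster, HOXD1, the most anterior gene and a low one, was called lower with triptolide at the upper doses and higher with homoharringtonine at each dose. It stood at 0, 0.296 and 0.552 CPM with DMSO. With triptolide it was 0.497, 0 and 0 CPM at 100 nM, 0, 0 and 0.0239 CPM at 1000 nM, and 0, 0 and 0.0386 CPM at 10000 nM. Each of the 2 upper doses held 1 count in all, 17.9-fold lower with a 95% counting interval of 3.21 to 705.7 at 1000 nM and 24.4-fold lower with an interval of 4.38 to 962.7 at 10000 nM. With homoharringtonine HOXD1 was 1.17, 0.874 and 1.24 CPM, then 2.08, 1.98 and 1.42 CPM, and 1.14, 1.37 and 1.48 CPM. All 9 wells lay above all DMSO wells. The log2 fold changes were 1.78 (SE 0.25, adjusted p = 1.20e-06), 2.49 (SE 0.23, adjusted p = 9.47e-10) and 2.00 (SE 0.23, adjusted p = 3.04e-08), and they stayed between 1.56 and 2.44 with library sizes and mitochondrial scaling. Antisense HAGLR was lower at each homoharringtonine dose (-1.04, -1.34 and -1.87) while HOXD1 was higher.

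HOXD3 and HOXD11 were lower at each homoharringtonine dose. With triptolide HOXD11 was also lower at each dose (-2.11, -1.59 and -1.41). HOXD3 was lower with 100 nM and 10000 nM triptolide (-1.28 and -1.09) and not called at 1000 nM (-0.55). HOXD3 stood at 0, 0.558 and 1.25 CPM with DMSO and at 0.0510, 0.120 and 0.0552 CPM with 100 nM homoharringtonine, below every deep DMSO well, changing by -2.97 (SE 0.48, adjusted p = 7.38e-06). HOXD11 stood at 0, 1.04 and 1.55 CPM with DMSO, at 0.355, 0 and 0 CPM with 100 nM triptolide (-2.11, SE 0.48, adjusted p = 0.000543) and at 0.102, 0.155 and 0.214 CPM with 10000 nM homoharringtonine (-2.74, SE 0.30, adjusted p = 1.73e-08). The 0 with DMSO was the shallow library in both. HOXD10, which shares exon bases with HOXD11, stood at 0.687, 1.06 and 3.67 CPM with DMSO. It was lower at each homoharringtonine dose (-2.58, -1.55 and -1.94) and was not called with triptolide (-0.99, -0.38 and 0.18).

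**Figure D4:**
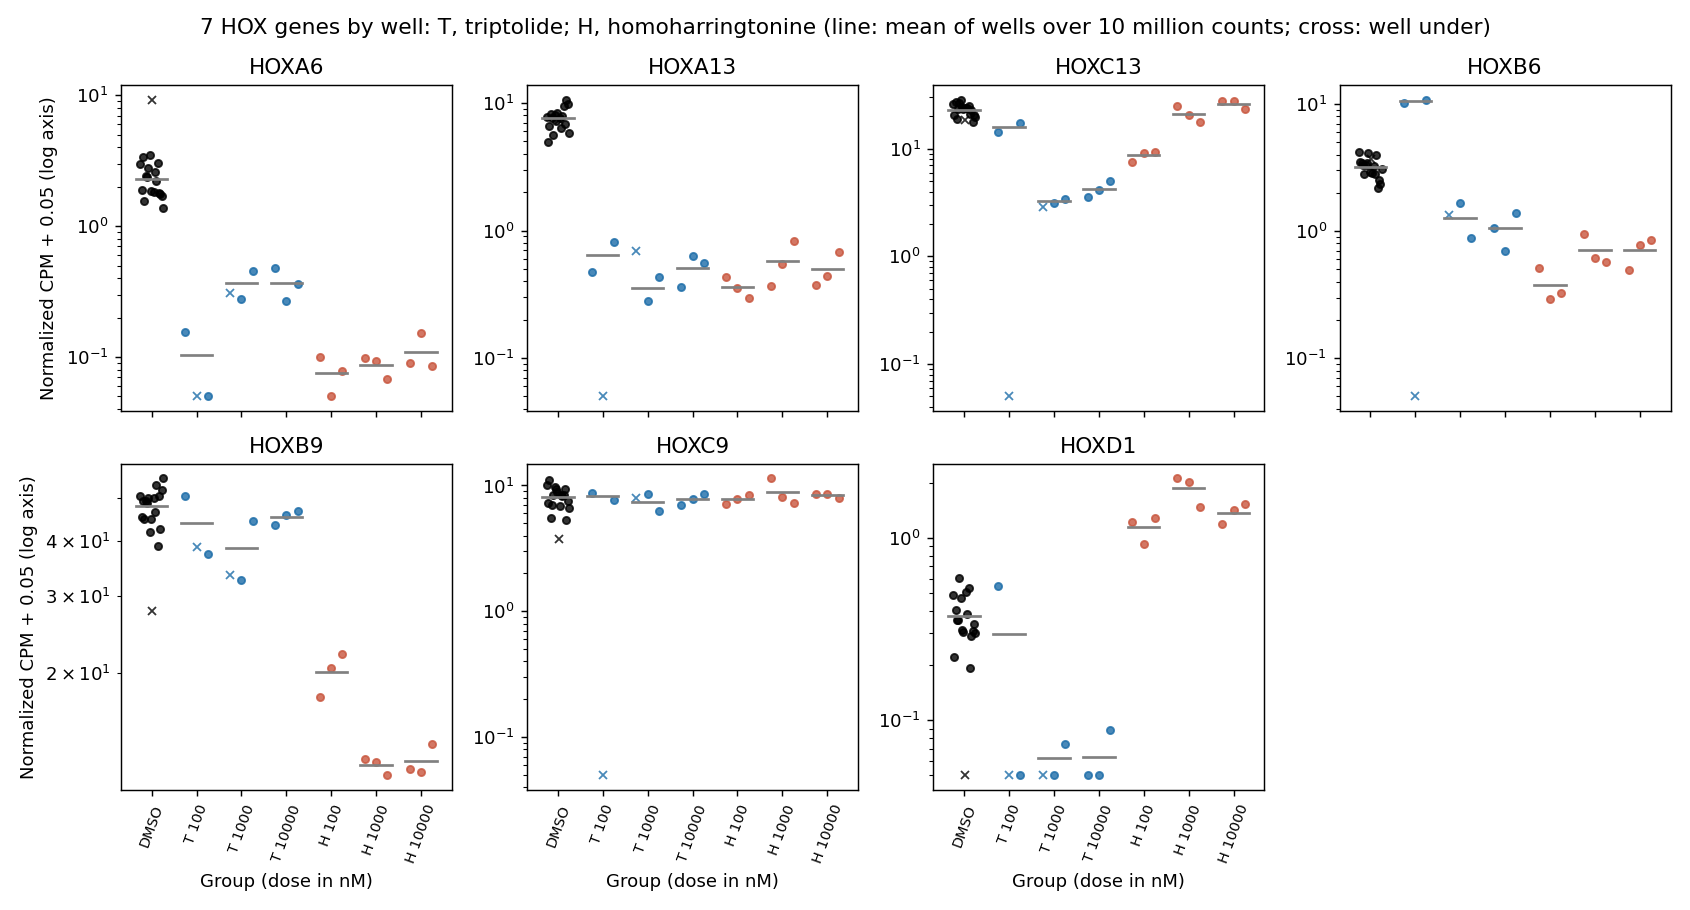
Normalized CPM + 0.05 on log axes for 7 HOX genes in DMSO wells and in wells with triptolide (T) and homoharringtonine (H) at each dose in nM, with points for wells, crosses for the shallow libraries and lines for the mean of the other wells. HOXA6 and HOXA13 lie below DMSO in every treated well, HOXB9 lies below all DMSO wells in the 9 homoharringtonine wells, and HOXD1 lies above DMSO in all 9 homoharringtonine wells.

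Triptolide and homoharringtonine were then compared with each other at the same dose, without DMSO. The filter left 25, 28 and 27 HOX genes at 100, 1000 and 10000 nM, and its outcome depends on these treated wells. At 100 nM 4 were higher with triptolide and 5 lower (7 and 4 without the shallow libraries), against 20.5% and 27.4% of all genes tested, and by the adjusted p alone 7 were higher, against 29.9%. At 1000 nM 4 were higher and 9 lower (3 and 9), against 22.6% and 36%, and by the adjusted p alone 7 were higher, against 27.9%. At 10000 nM 8 were higher and 8 lower, against 30.2% and 37.9%. With mitochondrial scaling the counts became 1 and 16, 0 and 22, and 0 and 24. Library sizes alone left 3, 1 and 3 higher. The median of all genes itself shifted by -1.65, -2.40 and -2.59 (log2) with mitochondrial scaling. With library sizes alone it shifted by -0.19, -0.31 and -0.58. The share of all genes called under these 2 scalings is not given here, so the counts are not read as particular to HOX genes.

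At 10000 nM the 8 lower genes with triptolide included HOXD1 (log2 difference -6.30), HOXA9, HOXA5, HOXC13, HOXA11, HOXA3 and HOXC8, the last 6 between -2.76 and -1.17. All of these kept their sign under library sizes and mitochondrial scaling, where HOXC8 was -1.76 and -3.76. The HOXD1 value rests on 1 count over the triptolide wells, so its size is poorly bounded. HOXD1 also passed the filter only through the homoharringtonine wells, where it was high. The higher genes were HOXD10 (2.22), HOXB9 (1.95, 1.78 to 2.12), HOXB3 (1.75), HOXA10 (1.46), HOXC4 (1.39), HOXA4 (1.27), HOXB13 (1.08) and HOXB7 (1.07), and each of these turned negative with mitochondrial scaling, HOXB9 to -0.63 and HOXD10 to -0.36. Of the 9 tested HOXA genes 2 were higher and 5 lower, and of the 7 HOXB genes 4 were higher and 0 lower. At 100 nM HOXB6 showed the largest difference (4.99, 95% interval 4.28 to 5.71, adjusted p = 1.55e-09), and it was 3.34 with mitochondrial scaling.

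**Figure D5:**
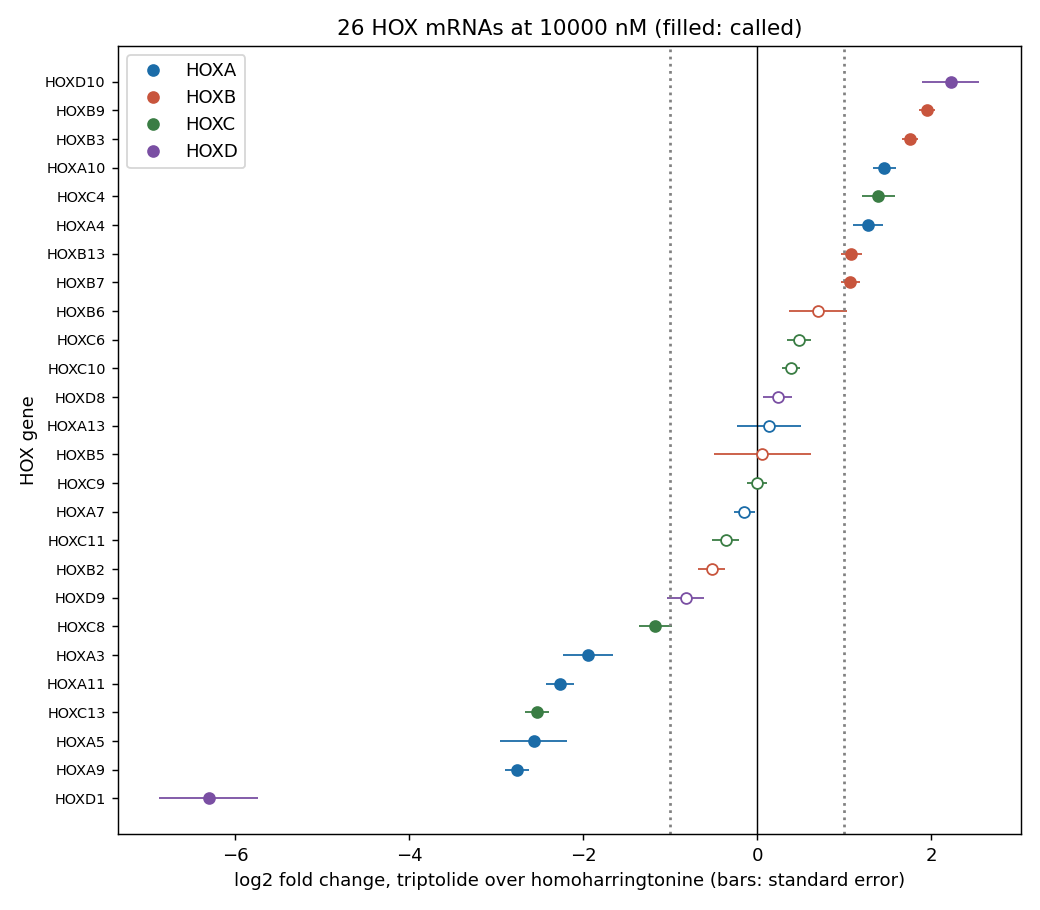
Log2 fold change of triptolide over homoharringtonine at 10000 nM for 26 HOX mRNAs that passed the filter, ordered by value and coloured by cluster, with standard errors as bars and filled points for called genes. The 8 called higher run from 1.07 for HOXB7 to 2.22 for HOXD10 and those called lower from -1.17 for HOXC8 to -6.30 for HOXD1; relative to the mitochondrial mRNAs all 8 higher genes turn negative.

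A trend on log10 dose was fitted over the 9 wells of each compound. With triptolide 7 of 26 HOX genes fell and 0 rose with dose (6 and 1 without the shallow libraries), against 18.1% and 7.09% of all genes by the adjusted p alone; 2 rose at an unadjusted p under 0.05 and 0 with DESeq2. Of the genes that fell, HOXB6 changed by -1.70 per 10-fold dose (log2, adjusted p = 0.000677), HOXB5 by -1.08, HOXA11 by -1.07, HOXC13 by -0.94, HOXA9 by -0.81 and HOXB13 by -0.52. Leaving out 1 replicate number left 3, 4 or 2 falling genes. With homoharringtonine 6 of 27 rose and 4 fell, against 21.1% and 22.9%. HOXC13 (0.75), HOXA5 (0.71), HOXC6 (0.50), HOXA7 (0.48), HOXA9 (0.40) and HOXA4 (0.36) rose with dose, from levels below DMSO at 100 nM, and HOXA10 (-0.91), HOXC8 (-0.64), HOXA11 (-0.45) and HOXB9 (-0.38) fell. Without replicate 2 or 3 the rising genes were 2 and 3, and with mitochondrial scaling 1.

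Few HOX genes were called with the other 4 compounds. Over 12 comparisons of 33 genes with DMSO, 0 calls were higher and 4 lower (5 without the shallow DMSO library), against 0.46% higher and 0.28% lower over all genes tested in the same comparisons. By the adjusted p alone there were 14 higher and 15 lower calls among 396, against 2.17% and 1.6% of all genes, at an unadjusted p under 0.05 there were 33 and 41, and DESeq2 gave 0 and 5 calls. By the adjusted p alone nilotinib gave 3, 4 and 6 lower of 33 with rising dose, and 3, 2 and 2 higher. Pyrazolanthrone gave 0, 0 and 2 lower and 2, 0 and 2 higher. MK-2206 gave 0 lower at each dose and 0, 2 and 1 higher, and miglitol gave 0 in either direction. The share of all genes by this rule is given only over the 12 comparisons together. The counts by compound and dose are therefore not read as an effect of dose on HOX genes. The 4 calls were HOXD10 and HOXD11, neighbours that share exon bases. HOXD10 was 0.420, 0.499 and 0.625 CPM with 10000 nM pyrazolanthrone (-1.07, adjusted p = 0.0188; 0.596% of all genes lower), 0.550, 0.454 and 0.292 CPM with 100 nM nilotinib (-1.31, adjusted p = 0.00777; 0.78% lower), and 0.473, 0.411 and 0.306 CPM with 10000 nM nilotinib (-1.41, adjusted p = 0.00152; 0.717% lower). At 1000 nM nilotinib it was -1.06 with an adjusted p of 0.0503. HOXD11 was 0.331, 0.252 and 0.400 CPM with 10000 nM nilotinib (-1.66, adjusted p = 8.40e-05). These wells lay below all DMSO wells for HOXD10 and below the deep DMSO wells for HOXD11. The first 2 HOXD10 calls were lost when a replicate was left out.

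Genes that work with the HOX clusters were taken as lists, and their counts are given at 10000 nM, where 30.2% of all tested genes were lower and 16.4% higher with triptolide and 23.4% were lower and 23.7% higher with homoharringtonine. Of 8 tested TALE cofactors 4 were lower and 0 higher with triptolide (median -0.66), led by MEIS1 (-3.73) and MEIS2 (-2.31). With homoharringtonine 2 of 9 were lower, PBX2 (-1.05) among them, and 2 higher, PKNOX2 (3.58) and PBX4 (2.83), with a median of -0.22. Of 27 Polycomb genes 10 were lower and 2 higher with triptolide (median -0.65), with CBX8 (-5.29) among the lowest and PHC1 (1.20) and PCGF2 (1.13) highest. With homoharringtonine 5 were lower, led by CBX2 (-3.19) and CBX6 (-2.32), and 6 higher, led by PHC3 (1.81) and EED (1.69), with a median of 0.08. Of 13 MLL and COMPASS genes 8 were lower and 0 higher with triptolide (median -1.02), led by HCFC2 (-3.01) and KDM6A (-2.83). With homoharringtonine 3 were lower, led by HCFC1 (-2.48) and MEN1 (-1.58), and 4 higher, led by the H3K27 demethylases KDM6B (2.73) and KDM6A (2.65). The positive triptolide values are relative to the other mRNAs, since with mitochondrial scaling 97.4% of all genes were lower.

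The counts for the remaining lists at 10000 nM are to be read against the same shares of all genes, 30.2% lower and 16.4% higher with triptolide and 23.4% and 23.7% with homoharringtonine. The noncoding RNAs of the clusters had calls in both directions with triptolide, with 3 of 15 lower and 3 higher (median -0.03). HOXA-AS3 (-2.66) and HOXB-AS3 (-1.63) were lowest, and HOXC-AS3 (1.65) and HOXB-AS1 (1.34) highest. With homoharringtonine 10 of 14 were lower and 0 higher (median -1.97). HOXA-AS3 changed by -3.85 and HOTAIR, the HOXC noncoding RNA, by -3.64, while HOTAIR was -0.64 and not called with triptolide. HOXB-AS4 held 0 counts with 10000 nM homoharringtonine and was at least 21.1-fold lower, taking 3 counts over the group as the floor. Of 55 other homeobox genes 38 were lower and 3 higher with triptolide (median -1.85), with IRX3 (-5.66) and ISL2 (-5.19) lowest and DLX4 (1.68) and CUX2 (1.45) highest. With homoharringtonine 22 of 56 were lower and 11 higher (median -0.33), with LHX1 (-4.14), TSHZ1 (-3.32), MSX2 (2.31) and ZFHX2 (1.87) at the ends. The genes flanking the clusters had a median of 0.43 with triptolide (2 of 21 lower and 2 higher) and of -0.47 with homoharringtonine (4 of 22 lower and 5 higher). Among them NFE2L2 (-3.16) and SNX11 (-2.81) were lower and ATP5MC1 (1.48) and HIBADH (1.46) higher with triptolide, and HNRNPA1 (-1.75) and SNX10 (-1.72) were lower and SKAP2 (4.59) and SNX11 (1.51) higher with homoharringtonine.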

How the data were processed

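Population RNA-seq of 72 wells was analysed. Per the submitters' processing notes RSEM, HTSeq and DESeq2 were used on GRCh38, and versions are not given in the sources used here. The deposited files hold, for 60371 rows, the authors' RSEM expected counts (not normalized, not always whole), TPM and FPKM values (both scaled by the authors to length and depth). The 92 rows of ERCC spike-in controls, 0.0158% to 1.12% of counts, were left out. Groups and doses came from the sample labels, which give the middle dose as 1000 nM; the study's results also give it so, but its methods write 1 nM for these wells, and every middle-dose value and dose trend here takes the labels' dose. Of 60279 genes 56104 matched GENCODE 44.

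Expected counts were rounded and tested with edgeR 4.0.16 in R 4.3.3 (TMM normalization, filterByExpr with a minimum count of 10, quasi-likelihood test, Benjamini-Hochberg adjustment over all genes tested). Normalized CPM used TMM factors over all 72 wells, and TPM and FPKM served for levels per length. With 3 treated wells a group, the spread is estimated mostly from the DMSO wells. DESeq2 1.42.0, Python 3.11.15, scipy 1.17.1 and pandas 2.3.3 served for alternatives and summaries. The scripts were tested on simulated data. Counting intervals (95%, exact) and the floor of 3 counts cover counting error only. Standard errors were not returned by the edgeR test. They were derived as the size of the log2 fold change over the square root of its F statistic. Intervals of log2 differences between the compounds are normal 95% intervals on these standard errors. With 3 wells of each compound they may be too narrow. The HOX genes and the lists were chosen with earlier results of these data known. Named were the HOX genes at 1 TPM or more with DMSO, up to 6 called genes with the largest rise and fall in each comparison with triptolide and homoharringtonine, every call with the other compounds, and up to 2 in each direction from each list at 10000 nM. HOXA3, HOXA4, HOXA7, HOXB3, HOXB7, HOXB9, HOXC8, HOXC9, HOXC13 and HOXD10 were also given by dose after their values were seen. Some genes are counted in the totals but not reported here by name, in the text or the figures.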

Additional observations from a re-analysis of the deposited data

Results flagged for a closer look

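For 6 HOX genes the fold changes from DMSO with triptolide and homoharringtonine had opposite signs, some of them near 0. The direct comparison at the same dose passed the test (edgeR's quasi-likelihood test, Benjamini-Hochberg adjusted). HOXD1 differed by -1.65 at 100 nM (adjusted p = 0.0208), -6.49 at 1000 nM (adjusted p = 7.93e-05) and -6.30 at 10000 nM (adjusted p = 1.04e-06) as the log2 ratio of triptolide to homoharringtonine. It passed the filter through the homoharringtonine wells, where it was high, so its p-values are not support for the difference. The triptolide wells held 1 count of HOXD1 in all at each upper dose, which bounds the size poorly. With 100 nM triptolide HOXD1 was -0.03 from DMSO. HOXB6 differed by 4.99 at 100 nM (adjusted p = 1.55e-09), HOXA3 by -3.04 at 1000 nM (adjusted p = 0.000631) and HOXC13 by -2.54 at 10000 nM (adjusted p = 1.28e-08). HOXB3 differed by 1.75 (adjusted p = 1.23e-08) and HOXD10 by 2.22 (adjusted p = 6.98e-05) at 10000 nM, and these 2 values became -0.84 and -0.36 with mitochondrial scaling. Beside HOXD1 at the upper doses and HOXB6 at 100 nM, 1 of the 2 changes from DMSO was not itself called, as for HOXA3 with 1000 nM homoharringtonine (0.18) and HOXC13 with 10000 nM homoharringtonine (0.17). Under another scaling 4 of the 6 no longer lay on opposite sides of DMSO. With library sizes the 10000 nM triptolide values of HOXB3 (0.12) and HOXD10 (0.18) became -0.41 and -0.36, and with mitochondrial scaling HOXC13 with 10000 nM homoharringtonine became -0.14 and HOXB6 with 100 nM triptolide -0.0081. HOXD1 and HOXA3 kept opposite signs under both scalings at the doses named.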

How the results depend on the processing

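Scaled to the 13 mitochondrial mRNAs, the HOX genes called were 0 higher and 32 lower with 100 nM triptolide, 33 lower at 1000 nM and 33 at 10000 nM. Between triptolide and homoharringtonine they were 1 higher and 16 lower, 0 and 22, and 0 and 24, with 14 falling with triptolide dose, 1 rising with homoharringtonine dose, and 2 higher and 14 lower with the other compounds. Shares of all genes under this scaling are given above only for triptolide against DMSO. The other counts are therefore not read as particular to HOX genes. HOXB6 with 100 nM triptolide turned from 1.72 to -0.0081. With at least 10 counts in every well fewer genes could be tested, leaving 6 lower with 1000 and 6 with 10000 nM triptolide, 0 higher and 8, 7 and 7 lower with homoharringtonine, 1 higher and 4 lower at 1000 nM and 5 and 4 at 10000 nM between the compounds, and 0 lower with the others. This setting gave no value for 100 nM triptolide. With no filter, 3 were higher with 100 nM triptolide and 1 rose with its dose. By the adjusted p alone, 1 was higher with 1000 nM triptolide, 7 and 7 higher between the compounds at 100 and 1000 nM, and 14 higher and 15 lower with the others. Library sizes alone gave 1 and 3 higher between the compounds at 1000 and 10000 nM, DESeq2 1 lower at 100 nM, and leaving out the 3 shallow libraries 7 higher at 100 nM and 1 rising with triptolide dose. For the changes beyond the filter and scaling, the cause was not tested.

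Leaving out 1 replicate gave 4 to 7 higher and 3 to 6 lower between the compounds at 100 nM (7 without triptolide replicate 2, the shallowest library), 2 to 4 falling with triptolide dose, 2 to 5 rising with homoharringtonine dose, and 0 to 1 higher with the others. The labels do not say whether wells with the same replicate number were handled together. The deviations of 23 pairs correlated from -0.89 to 0.90 (median -0.12, 6 over 0.1). With so few wells a group, these values cannot decide it. With the replicate block, 3 genes were lower at 100 nM between the compounds and 3 fell with triptolide dose. In comparisons with DMSO this setting also kept only DMSO replicates 1 to 3, and the call of HOXD10 with 100 nM nilotinib was lost there.

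The other 223 counts stayed within 1.5 times the reported count. Of the values for single genes 390 kept their direction and side of the threshold, and the 8 calls lost were HOXD10 with 10000 nM pyrazolanthrone or 100 nM nilotinib. Depth limits HOXA2, HOXA6 and HOXD1, which rest on 1 to 3 counts in some groups.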
